A study of Mus musculus with 2 samples.

Results

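The genes described are 10 cholinergic genes, taken by symbol from the 32285 genes of the count matrix. They are Chat, Slc5a7 and Slc18a3, which serve acetylcholine synthesis, choline uptake and vesicle loading, the 5 muscarinic receptor genes Chrm1 to Chrm5, and the nicotinic receptor subunit genes Chrna4 and Chrna7. The set is therefore wider than synthesis and muscarinic receptors alone, since it also holds transporters and ion channel subunits. They were taken by name and not by a measured value, though earlier results of these data were known.

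The data came from 1 single-nucleus RNA-seq library of the mouse hypothalamus, made to identify the neuron types of the arcuate nucleus (ARC). Nuclei from micro-dissected tissue of wild-type male C57BL/6J mice aged 10 to 12 weeks were stained for NeuN, a neuronal nuclear protein, sorted, and run on the 10x Chromium v3 platform. A matched library of the same nuclei counted 2 antibody hashtags, named ARC and PVH (paraventricular hypothalamus), and a nucleus was assigned to a side by its hashtag. No treatment or genetic change separated the sides, animals were pooled, and each side was 1 sample, so no comparison has a replicate check and none was tested.

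Of 11409 barcodes, 10170 nuclei passed the filters, with 964 to 12000 unique molecular identifiers (UMIs, counted RNA molecules) each and a median of 4693.5. The ARC hashtag marked 3767 nuclei (19492658 UMIs) and the PVH hashtag 3074 (16732895 UMIs), while 944 nuclei carried both hashtags and 2385 neither. Clustering without the 10 genes gave 13 neuron clusters (3737 nuclei) and 1 non-neuronal cluster (30 nuclei) on the ARC side, and 15 neuron clusters on the PVH side. Fixed marker genes named 7 ARC and 8 PVH clusters ("AGRP-like" and so on), and the other 13 keep a number only. The sides differed in Sim1, a transcription factor of PVH neurons (10.6 against 109 UMIs of the gene in 1000000 UMIs of the group, counts per 1000000, CPM), but ARC cluster 2 (541 nuclei) had Sim1 at 62.3 CPM and passed the oligodendrocyte list with all 5 of its markers, among them Mbp at 162 CPM against 66.9 over ARC neurons. PVH cluster 1 (444 nuclei) passed the astrocyte and oligodendrocyte lists. Both were kept as neurons, and values without them are given where they change a result. Hormone RNA was widespread in every group: Oxt was counted in 92.7% of ARC neurons, and Agrp in 54.0% of ARC and 54.1% of PVH neurons.

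Acetylcholine is made from choline and acetyl-CoA by choline acetyltransferase (Chat), refilled by the high-affinity choline transporter (Slc5a7) and packed into vesicles by the vesicular acetylcholine transporter (Slc18a3). Muscarinic receptors are G-protein-coupled: Chrm1, Chrm3 and Chrm5 signal through Gq and phospholipase C, while Chrm2 and Chrm4 signal through Gi/o and can open GIRK potassium channels. Chrna7 forms a calcium-permeable nicotinic channel, and Chrna4 pairs with Chrnb2 in a high-affinity one. In the hypothalamus acetylcholine acts on feeding and endocrine circuits.

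In the GRCm38 annotation (GENCODE M21) Chat lies on the minus strand at chr14:32408203-32465989, and the single exon of Slc18a3 lies inside it at chr14:32462438-32464850 on the same strand. Slc18a3 shares no exon base with Chat, sits within the first intron of 4 of its 8 transcripts, and the gene starts are 1139 bases apart, an arrangement known as the cholinergic gene locus. Slc5a7 is at chr17:54273590-54299034 (minus strand). The stretch from 250 to 81 bases before the RefSeq start is shown for these 3 genes, because they serve 1 function and were detected very unequally, and for Chrm2 and Chrm3, which peaked in different clusters. Windows are 170 bases of GRCm38.p6, read 5′ to 3′ on the gene's strand, with capitals marking matches on either strand to motifs named here by their letters: the cyclic AMP response element TGACGTCA with its shorter form TGACG that lies within it, the E-boxes written CACGTG or alternatively CAGCTG, the GC box with letters GGGCGG, the promoter box called CCAAT, the TATA box searched as TATAAA, and the homeodomain motif TAATTA.
Chat, chr14:32465990-32466159, minus strand: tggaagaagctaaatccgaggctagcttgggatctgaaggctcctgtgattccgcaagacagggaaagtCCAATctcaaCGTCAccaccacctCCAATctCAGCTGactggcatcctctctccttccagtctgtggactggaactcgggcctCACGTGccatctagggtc
Slc18a3, chr14:32464931-32465100, minus strand: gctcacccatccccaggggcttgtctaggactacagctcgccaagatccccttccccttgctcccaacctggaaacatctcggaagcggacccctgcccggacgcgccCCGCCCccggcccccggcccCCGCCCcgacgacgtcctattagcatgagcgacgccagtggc
Slc5a7, chr17:54299115-54299284, minus strand: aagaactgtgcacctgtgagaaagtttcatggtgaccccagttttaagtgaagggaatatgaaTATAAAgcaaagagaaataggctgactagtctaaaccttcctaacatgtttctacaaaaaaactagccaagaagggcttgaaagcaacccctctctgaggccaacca
Chrm2, chr6:36387834-36388003, plus strand: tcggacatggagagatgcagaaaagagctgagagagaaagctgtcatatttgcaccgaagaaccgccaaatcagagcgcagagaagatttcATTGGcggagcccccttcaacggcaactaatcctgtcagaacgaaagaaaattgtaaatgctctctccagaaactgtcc
Chrm3, chr13:10360884-10361053, minus strand: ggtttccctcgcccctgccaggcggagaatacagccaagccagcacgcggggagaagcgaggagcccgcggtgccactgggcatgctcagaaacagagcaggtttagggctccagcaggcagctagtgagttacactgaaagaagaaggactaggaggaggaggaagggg

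The Chat window held CCAAT at 181 and 157 bases before the start, TGACG on the other strand at 171, CAGCTG at 150 and CACGTG at 98. The Slc18a3 window held GGGCGG on the other strand at 142 and 122, the Slc5a7 window TATAAA at 187, and the Chrm2 window CCAAT on the other strand at 159. Of 32851 RefSeq windows of this length, 23.3% hold CCAAT, 19.5% GGGCGG, 9.86% TGACG, 8.65% CAGCTG, 8.04% TATAAA and 3.38% CACGTG, so most of these letters are common. The GC content was 54.7% for Chat, 69.4% for Slc18a3, 41.2% for Slc5a7, 47.1% for Chrm2 and 61.2% for Chrm3, against a median of 51.2%. The whole Chrm2 window also lies in an annotated exon of a gene on the opposite strand, and the Slc18a3 window holds 59 annotated exon bases.

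Chat was a gene of 1 arcuate cluster. The GHRH-like cluster (ARC cluster 9, 204 nuclei) was named from Ghrh, Gal, Hmx2 and Hmx3. Gsx1 and Dlk1 of the same marker list did not pass. The cluster held 119 of the 135 Chat UMIs of ARC neurons, or 88.1% (exact binomial 95% interval, 81.5 to 93.1). It had 5.57% of the total UMIs of ARC neurons. Its Chat level was 110 CPM (exact Poisson 95% interval, 91.1 to 132) against 0.873 CPM (0.499 to 1.42) over the other ARC neurons, a 126-fold difference (74.5 to 228). All intervals cover counting error only. The cluster was chosen by this value, so the fold is a description. Of 16480 genes with enough UMIs (20 or more), 31.9% were 2-fold and 4.38% were 5-fold or more higher in their own richest ARC cluster than in the remaining ARC neurons, and of 16253 on the PVH side 36% and 4.87% were.

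At least 1 Chat UMI was found in 78 of the 204 GHRH-like nuclei, or 38.2% (31.5 to 45.3), with at most 4 in a nucleus. Outside that cluster 13 of 3533 ARC neurons had one, or 0.368% (0.196 to 0.628), at a near-equal median depth (4893 and 4830 UMIs). Thinned to 1000 UMIs a nucleus, the GHRH-like share was 11.3%. Chat was thus seldom counted outside 1 cluster, whereas Oxt and Agrp were counted in most neurons of both sides. None of the 30 non-neuronal nuclei (median 2557 UMIs) had a Chat UMI, which at a limit of 3 counts allows up to 10.0% of nuclei with a UMI and says nothing on nuclei that express it unseen.

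The other ARC clusters lay close together in Chat. The AGRP-like cluster had 6 UMIs (1.62 CPM), cluster 2 had 5 (1.81 CPM), the SST-like cluster 2 (1.22 CPM), and the POMC-like, VMH-like and number 11 clusters 1 each. The KNDy-like, dopaminergic-like, 5, 6, 7 and 13 clusters had none, where 3 UMIs would have been 2.29 to 4.38 CPM. A step between neighbours in the order of levels was called apart where the exact binomial interval of their ratio excluded 1. Only the step from the GHRH-like cluster down to the next was apart, 1 of 27 steps in the order of the 28 clusters.

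**Figure D1:**
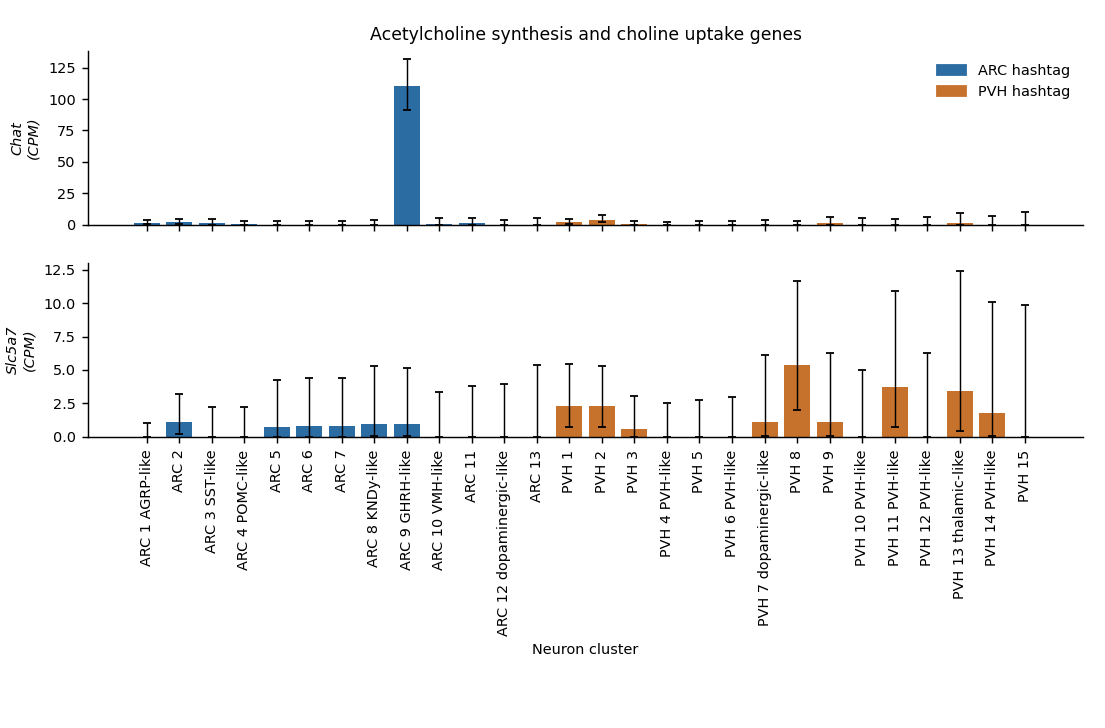
Chat and Slc5a7 level (CPM, linear axes from 0) in each of the 28 neuron clusters, blue for the ARC and orange for the PVH hashtag; bars are summed levels and whiskers exact Poisson 95% intervals. Chat stands at 110 CPM in the GHRH-like cluster and at or below 4.09 CPM in every other cluster, and the Slc5a7 intervals of neighbouring clusters in the order of levels overlap.

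The GHRH-like nuclei carried other transmitter genes. Their Ghrh level, encoding growth hormone-releasing hormone, was 79.5 CPM against 13.2 in the other ARC neurons, and these genes helped to name the cluster. Th, for tyrosine hydroxylase of catecholamine synthesis and not among the naming genes, was 44.4 against 8.24 CPM, while Slc6a3, the dopamine transporter, had no UMI (3 would be 2.77 CPM) against 4.20 CPM. Gad2, which makes GABA, stood at 203 CPM in the cluster, and Slc17a6, the vesicular glutamate transporter, at 13.9 against 48.3 CPM. On these levels the Chat-bearing cluster was GABAergic, and its leptin receptor gene Lepr was at 11.1 against 48.0 CPM.

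Nucleus by nucleus, 91 ARC neurons with Chat were set beside 3646 without it (median depth 5128 and 4825 UMIs). Gal, the galanin gene, was counted in 61.5% (50.8 to 71.6) against 24.8%, Ghrh in 30.8% (21.5 to 41.3) against 7.08%, and Th in 17.6% (10.4 to 27.0) against 4.11%. Agrp, with 56.0% against 54.0%, and Slc18a2, with 13.2% against 12.0%, differed little. Inside the GHRH-like cluster the Chat-positive and Chat-negative nuclei were much closer: Gal stood at 64.1% (52.4 to 74.7) and 50% (41.0 to 59.0), Ghrh at 35.9% (25.3 to 47.6) and 24.6% (17.4 to 33.1), and Th at 20.5% and 21.4%. With 78 and 126 nuclei, the intervals for Gal and Ghrh overlap. Chrm3 was found in similar shares of these nuclei (59.0% and 60.3%), but its summed level was 196 CPM (157 to 242) in the Chat-positive and 291 CPM in the Chat-negative ones.

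The partner genes of Chat were nearly absent from the same nuclei. Slc5a7 had 8 UMIs in all ARC neurons, in 8 nuclei of 6 clusters, or 0.412 CPM (0.178 to 0.812). Only 1 of the 91 Chat-positive ARC neurons had one, 1.10% (0.0278 to 5.97) against 0.192% of Chat-negative neurons, and none of the 29 nuclei with at least 2 Chat UMIs did. Slc18a3 had no UMI in any of the 10170 nuclei, which at a limit of 3 counts allows up to 0.155 CPM in ARC and 0.179 CPM in PVH neurons, and up to 0.0803% and 0.0976% of nuclei with a UMI, not of nuclei that express it. These counts could not show a low level of either gene, and the Slc18a3 limits hold only if reads inside Chat could be counted for it.

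On the PVH side Chat had 16 UMIs in 12 of 3074 nuclei, 0.956 CPM (0.547 to 1.55), against 6.96 CPM (5.83 to 8.23) and 91 nuclei in ARC neurons. Cluster 2, led by Tfap2b, Samd3 and Lhx6, held 9 of the 16 in 5 nuclei (4.09 CPM, 1.87 to 7.76), and none was in a PVH-like cluster. The PVH-to-ARC log2 ratio was -2.86 (-3.71 to -2.11). Fewer nuclei of a Chat-bearing type and less Chat RNA per nucleus cannot be told apart in this ratio. The ARC neurons outside the GHRH-like cluster had 0.873 CPM, within the PVH interval.

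Slc5a7 went the other way, with 25 UMIs in 22 PVH nuclei of 9 clusters, 1.49 CPM (0.967 to 2.21) and a log2 ratio of 1.86 (0.66 to 3.22). The highest level was in PVH cluster 8, led by Sim2, with 6 UMIs in 4 nuclei (5.37 CPM, 1.97 to 11.7). Clusters 1 and 2 had 5 UMIs each, the PVH-like cluster 11 had 3, and no neighbouring clusters in the order were apart. None of the 22 PVH nuclei with Slc5a7 had a Chat UMI. After thinning to 1000 UMIs the shares were 0.107% of ARC and 0.130% of PVH neurons, too near 1 UMI to read a difference from.

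Among the Gq-coupled receptors Chrm3 was counted most often. It had 2811 UMIs in ARC neurons, 145 CPM (140 to 150), and 2210 in PVH neurons, 132 CPM (127 to 138), with a log2 ratio of -0.13 (-0.21 to -0.052). At least 1 UMI was present in 30.4% of ARC neurons, 29.1% of PVH neurons and 1 of 30 non-neuronal nuclei (3.33%). The near-equal totals hid a wide range between clusters, from 19.0 to 650 CPM in ARC (34.2-fold) and from 21.1 to 409 CPM in PVH (19.4-fold).

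Chrm3 was highest in ARC cluster 6, an unnamed GABAergic cluster led by Htr3b, Col4a3 and Vgll3, with 817 UMIs in 198 of its 261 nuclei (75.9%). Its 650 CPM (606 to 696) was 5.91-fold (5.45 to 6.42) the level of the other ARC neurons, and no other cluster reached it. PVH cluster 5, GABAergic and led by Nr4a2, Sp8 and Prkcd, followed at 409 CPM (375 to 445), then the thalamic-like PVH cluster 13 at 375 CPM (327 to 428). GHRH-like neurons had 252 CPM (223 to 284), ARC cluster 7 had 231 (205 to 259), PVH cluster 2 had 212 (193 to 232) and KNDy-like neurons 203 (177 to 232). The intervals of these 4 overlap from each to the next.

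The lower Chrm3 levels were in the ARC cluster 13 at 19.0 CPM, the PVH-like clusters 11 and 4 at 21.1 and 22.9 CPM, and the POMC-like cluster at 25.9 CPM (18.7 to 34.9). In all, 4 of 27 steps in the order were apart: below ARC cluster 6, below PVH cluster 13, below the KNDy-like cluster, and below ARC cluster 5 (67.2 CPM). Neighbours in an order are the closest pairs, so a step that was not apart does not make distant clusters equal. PVH cluster 3 at 147 CPM and ARC cluster 5 at 67.2 CPM had no apart step between them.

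Chrm1 was sparse, with 83 UMIs in ARC neurons (4.28 CPM, 3.41 to 5.30) and 67 in PVH neurons (4.00 CPM, 3.10 to 5.09), in 2.17% and 2.05% of nuclei. Its richest clusters were ARC cluster 11 at 16.5 CPM (9.44 to 26.8), 4.54-fold (2.46 to 7.93) the other ARC neurons, and PVH cluster 15 at 16.1 CPM (5.90 to 35.0). Next came the PVH-like cluster 12 (13.7 CPM) and the dopaminergic-like PVH cluster 7 (12.1 CPM). Of its marker list, PVH cluster 7 passed Slc6a3, Slc18a2 and Lhx1 but not Th or Ddc. The VMH-like (10.95 CPM) and dopaminergic-like (10.7 CPM) ARC clusters followed, with no step apart. The KNDy-like cluster had no UMI, where 3 would be 2.87 CPM. Chrm5 had 6 UMIs in ARC and 8 in PVH neurons (0.309 and 0.478 CPM).

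Of the Gi-coupled receptor genes, only Chrm2 reached 20 UMIs over both sides. It had 799 UMIs in ARC neurons, 41.2 CPM (38.4 to 44.1) in 12.8% of nuclei, and 1472 in PVH neurons, 88.0 CPM (83.5 to 92.6) in 24.8%, a log2 ratio of 1.10 (0.97 to 1.22). Without ARC cluster 2 and PVH cluster 1 the log2 ratio was 1.33. The thinned shares, 3.18% and 7.06%, ran the same way, and 1 of 30 non-neuronal nuclei had Chrm2. Chrm4 had 1 UMI, in ARC cluster 2, and none on the PVH side.

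Chrm2 had 3 high clusters that stood apart from all others. The PVH-like cluster 11, whose Oxt level was 1984 CPM, had Chrm2 at 237 CPM (205 to 273) in 81 of its 108 nuclei (75.0%), at the highest median depth of any cluster (7133.5 UMIs). The PVH-like cluster 12 had 219 CPM (182 to 260). ARC cluster 11, led by Tbx19, Pirt and Crhr2 and passing no class, had 216 CPM (187 to 247), 6.74-fold (5.73 to 7.91) the other ARC neurons, and held 26.2% (23.1 to 29.4) of ARC Chrm2 UMIs in 4.99% of the ARC neuron UMIs. Its Chrm2 was found in 88 of 194 nuclei (45.4%), and its Lepr level was 92.9 against 45.9 CPM over ARC neurons.

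Below them PVH cluster 9 had 119 CPM (97.5 to 144), PVH-like cluster 6 had 115 and PVH cluster 8 had 105. PVH clusters 2 and 3, also among the 8 highest in Chrm3 (212 and 147 CPM), had 97.7 and 92.5 CPM. ARC cluster 2 had 63.8 CPM, AGRP-like 35.9, POMC-like 32.5 and ARC cluster 6, the highest in Chrm3, 35.8. The lowest 4 levels were all in ARC clusters: SST-like 10.96 CPM (6.49 to 17.3), GHRH-like 10.2 (5.08 to 18.2), dopaminergic-like 7.47 (3.003 to 15.4) and KNDy-like 5.74 (2.11 to 12.5). Just 2 of 27 steps were apart, below the top 3 clusters and above the bottom 4.

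**Figure D2:**
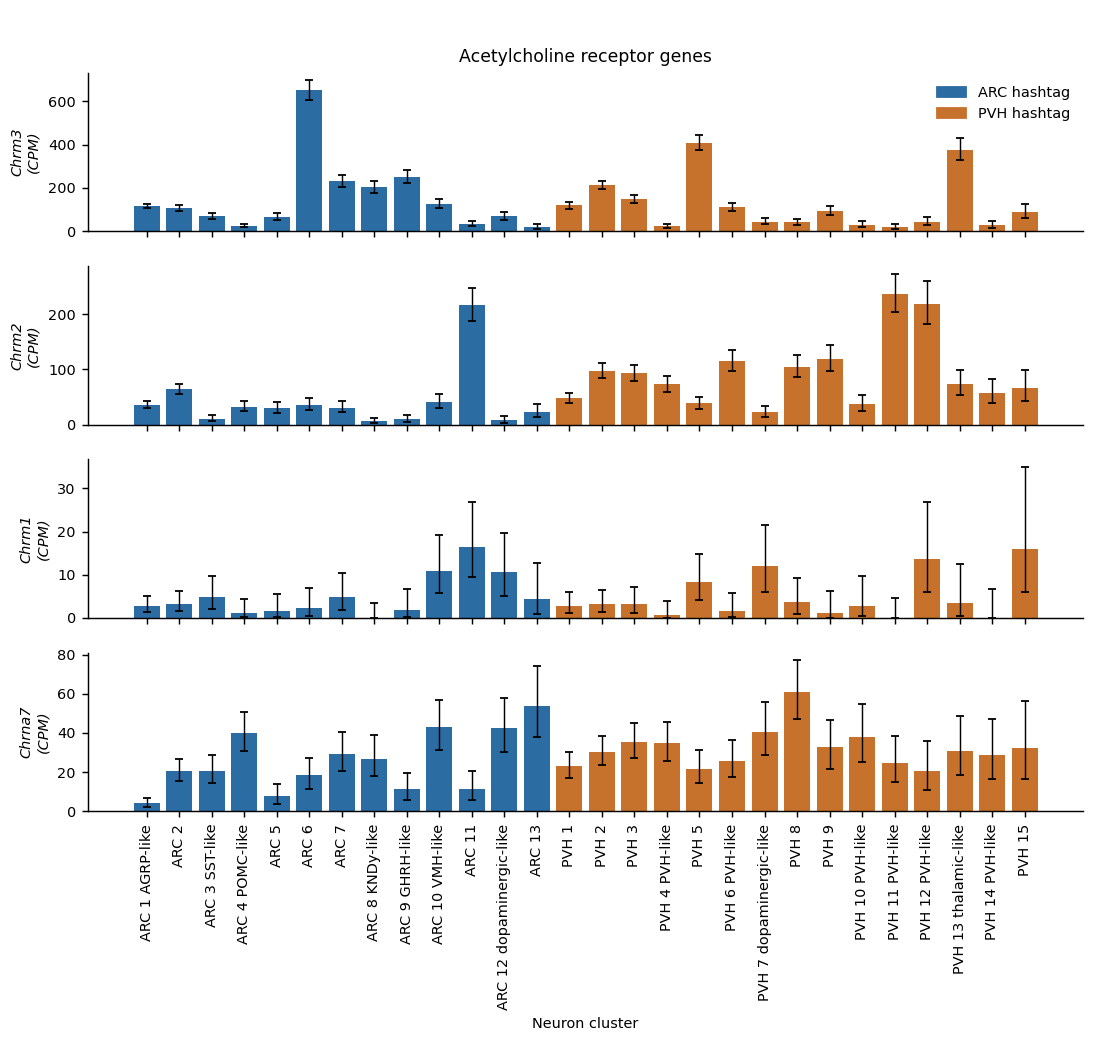
Chrm3, Chrm2, Chrm1 and Chrna7 level (CPM, linear axes from 0) in each neuron cluster, blue for ARC and orange for PVH; bars are summed levels and whiskers exact Poisson 95% intervals. Chrm3 peaks at 650 CPM in ARC cluster 6, and Chrm2 at 216 to 237 CPM in ARC cluster 11 and the PVH-like clusters 11 and 12.

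The 3 clusters highest in Chrm2 were not the 3 highest in Chrm3. Chrm3 made up 77.9% of the summed Chrm2 and Chrm3 UMIs in ARC and 60.0% in PVH neurons. By cluster the share ran from 97.2% (94.1 to 98.98) in KNDy-like, 96.1% in GHRH-like and 94.8% in ARC cluster 6, through 76.3% in AGRP-like and 44.3% in POMC-like, to 13.6% (9.58 to 18.6) in ARC cluster 11 and 8.17% (4.83 to 12.8) in PVH-like cluster 11. The 2 genes were still not simple opposites: over the 28 clusters, which share 1 library and have median depths of 4326 to 7133.5 UMIs, Pearson's r of log2(CPM + 1) was -0.230, given as a description. Within nuclei, Chrm3 was found in 27.5% of Chrm2-positive and 30.8% of Chrm2-negative ARC neurons, and in 28.7% and 29.2% of PVH neurons. The Chrm2-positive nuclei were deeper (median 5228 against 4792 UMIs in ARC, 5544 against 4889 in PVH). After thinning the shares were 7.56% and 11.6% in ARC, and 9.68% and 10.4% in PVH. The summed Chrm3 level was 125 CPM (112 to 139) against 148 in ARC, and 115 (106 to 125) against 139 in PVH.

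**Figure D3:**
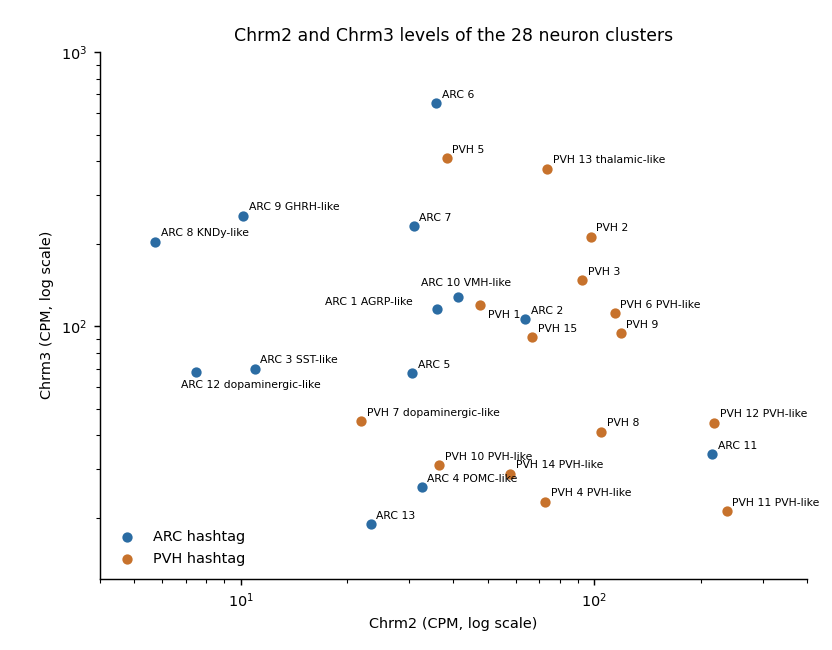
Chrm2 level against Chrm3 level (CPM, both axes logarithmic), 1 point for each of the 28 neuron clusters, blue for ARC and orange for PVH. KNDy-like and GHRH-like clusters lie at the upper left, ARC cluster 11 and the PVH-like clusters 11 and 12 at the lower right.

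The nicotinic gene Chrna7 ranged 13.3-fold over the ARC clusters and 2.97-fold over the PVH clusters, against 37.6-fold and 10.8-fold for Chrm2. It had 417 UMIs in ARC neurons, 21.5 CPM (19.5 to 23.7) in 8.72% of nuclei, and 531 in PVH neurons, 31.7 CPM (29.1 to 34.6) in 13.8%, a log2 ratio of 0.56 (0.37 to 0.75). With the stricter hashtag quantile of 0.99 that ratio was 0.022 (-0.35 to 0.39), an interval that includes 0. The PVH clusters spanned 20.5 to 60.9 CPM, highest in cluster 8, and the ARC clusters 4.05 to 54.0 CPM, highest in cluster 13. In ARC cluster 13 the UMIs were uneven, with up to 10 in 1 nucleus, and 18 of 133 nuclei had any. POMC-like (39.8 CPM), VMH-like (42.9) and dopaminergic-like neurons (42.7) were near the top, and AGRP-like neurons were lowest at 4.05 CPM (2.27 to 6.69). No step in the order was apart. Chrna4 had 15 UMIs in ARC neurons (0.773 CPM) and 22 in PVH neurons (1.31 CPM), with a log2 ratio of 0.77 (-0.25 to 1.82).

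CPM does not settle the order of levels between genes, and length scales are given only as descriptions. Each UMI is a counted RNA molecule, so levels need not scale with length. Whether introns were counted is not stated, so neither scale below is established. Per kb of exon, ARC neurons had Chrm3 at 23.2 CPM, Chrm2 at 6.80, Chrna7 at 4.77, Chat at 1.48, Chrm1 at 0.659 and Slc5a7 at 0.0730. Nuclear RNA is rich in unspliced transcripts, and per kb of gene span the order changed: Chrm3, which spans 485 kb, had 0.298 CPM, Chrm2 0.293, Chrm1 0.216, Chrna7 0.189 and Chat 0.120. On that scale Chrm3 and Chrm2 could hardly be told apart in ARC neurons, and in PVH neurons Chrm2 (0.627) was above Chrm3 (0.272).

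**Figure D4:**
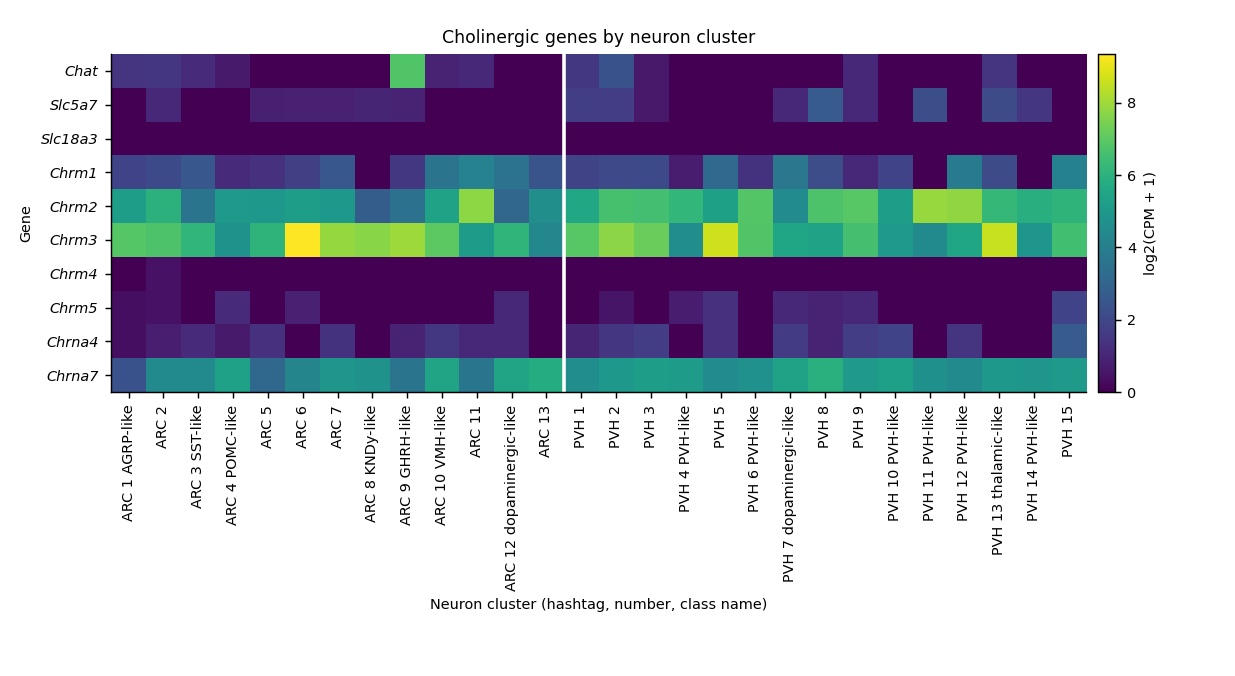
Level of each of the 10 genes, as log2(CPM + 1) by colour, in the 13 ARC and 15 PVH neuron clusters, the white line dividing the sides. Chat is bright in the GHRH-like cluster, Chrm2, Chrm3 and Chrna7 have UMIs in all 28 clusters, and Slc18a3 has none.

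Overlapping annotations touch some of these values, and the sources used here do not state whether counting used strand. Gm2990, antisense to Chat, had 17 of its 23 ARC neuron UMIs in the GHRH-like cluster (15.7 CPM). It was not withheld from clustering and is among that cluster's leading genes. 9330158H04Rik, opposite Chrm2, had 3.30 CPM in ARC and 13.5 CPM in PVH neurons, and 17.5 CPM in ARC cluster 11 and 26.1 CPM in PVH-like cluster 11, both high in Chrm2. Without strand such pairs cannot be told apart. Gm26861, which overlaps Chrm3, had 2.83 CPM in ARC neurons. Slc18a3 lies wholly inside Chat on the same strand. How reads there were counted is not stated, and any effect on the absence of Slc18a3 UMIs was not tested.

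Between the sides, 7 of the 10 genes reached 20 UMIs. A difference of 2-fold or more was reached upward in PVH by 2 of them, Slc5a7 and Chrm2 (3.47% of 18088 genes), and downward by 1, Chat (2.53% of genes). Their median log2 ratio was 0.56 against -0.042 over all genes. Of 27 other acetylcholine genes 19 were counted, and none was 2-fold higher in PVH and 1 lower, the muscle subunit Chrng with 4 UMIs in PVH and 19 in ARC neurons. Ache, which breaks down acetylcholine, had 39.0 CPM in ARC and 43.7 in PVH neurons, Chrnb2 had 14.4 and 12.0, and the choline transporter Slc44a1 87.8 and 90.2. Of 16 genes acting below muscarinic receptors all were counted, none was higher, and Gna14, a Gq-family subunit, was lower at 1.61 against 3.71 CPM, while phospholipase gene Plcb1 was at 418 in PVH and 252 CPM in ARC. Apart from Chrng and Gna14, no counted gene of these lists differed 2-fold between the sides.

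Between glutamatergic (5 clusters, 1481 nuclei) and GABAergic ARC neurons (8 clusters, 2256 nuclei), only Chat of the 5 counted genes differed 2-fold, at 0.895 against 11.1 CPM, a log2 ratio of -3.63 (-4.97 to -2.54), with 2.41% of 16480 genes lower and 3.29% higher by that rule. Chrna7 was at 30.04 against 15.7 CPM (log2 0.93, 0.65 to 1.22), Chrm3 at 125 against 158 (-0.34, -0.45 to -0.22), while the Chrm2 interval included 0 (-0.016, -0.22 to 0.19). Without ARC cluster 2, counted as glutamatergic, Chrna7 passed 2-fold (log2 1.16) and Chrm2 was lower in glutamatergic neurons (-0.54). Chat was then at -4.81 and Chrm3 at -0.22. With each nucleus classed by its own transmitter UMIs, the Chrm3 ratio changed sign (0.26), Chat was at -1.80 and Chrna7 at 0.39. With the stricter hashtag quantile of 0.99, Chrm2 was at -0.78 (-1.18 to -0.40) and Chrm3 at -0.80.
On the PVH side (2103 glutamatergic and 971 GABAergic nuclei), Chrm3 was at 108 against 189 CPM (-0.81, -0.93 to -0.69), Chrm2 at 95.7 against 69.6 (0.46, 0.28 to 0.64) while the Chrna7 interval included 0 (-0.029, -0.30 to 0.25). Of 6 counted genes, only Slc5a7 was 2-fold higher, with 22 UMIs against 3 (log2 1.62, -0.12 to 4.00), an interval that includes 0, and none was lower (4.18% and 2.01% of 16253 genes). Chat, below the 20 UMIs, had 1.19 against 0.405 CPM.

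**Figure D5:**
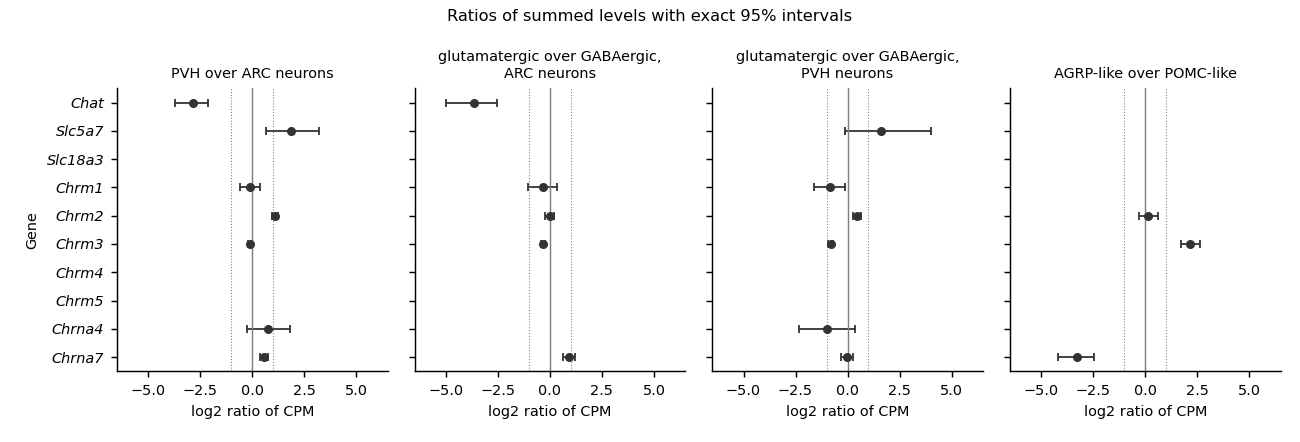
Log2 ratio of summed CPM (x axis) for each gene with at least 20 UMIs in the pair, in 4 comparisons; points are ratios, whiskers exact binomial 95% intervals, and dotted lines 2-fold. Chat lies at -2.86 and Chrm2 at 1.10 for PVH over ARC, and Chrm3 and Chrna7 lie on opposite sides of 0 for AGRP-like over POMC-like neurons.

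AGRP-like and POMC-like neurons, the appetite-raising and appetite-lowering neurons of the ARC, differed in the levels of a muscarinic and a nicotinic receptor gene. Chrm3 was at 116 CPM (105 to 127) in the 683 AGRP-like nuclei and 25.9 CPM in the 285 POMC-like nuclei, a log2 ratio of 2.16 (1.70 to 2.65). Chrna7 was at 4.05 and 39.8 CPM, a log2 ratio of -3.29 (-4.21 to -2.47). For Chrm2 the interval included 0 (0.14, -0.32 to 0.63). Of 3 counted genes 1 was thus 2-fold higher and 1 lower, where 5.18% and 4.54% of 13189 genes were.

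The downstream list was also split between AGRP-like and POMC-like neurons, with 3 of 16 genes 2-fold higher and 3 lower. Higher were Kcnq5 (455 against 69.3 CPM) and Kcnq3 (511 against 208), which encode M-current potassium channels, and Plcb4 (162 against 63.2). Lower were Plcb1 (89.5 against 304 CPM), the GIRK subunit Kcnj3 (196 against 411) and Gna14 (11 and 10 UMIs). Of 12 other acetylcholine genes, 1 was higher, Chrna9 at 6.22 against 3.01 CPM, a ratio that rests on few UMIs in the POMC-like cluster. The downstream and acetylcholine lists had median log2 ratios of -0.026 and -0.033, against 0.028 for all genes.

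GHRH-like neurons combined Chat with Chrm3 and little Chrm2. Against the other ARC neurons Chrm3 was at 252 and 139 CPM (log2 0.87, 0.68 to 1.05), Chrm2 at 10.2 and 43.0 (-2.08, -3.09 to -1.23), and Chrna7 at 11.1 and 22.1 (-0.99, -1.96 to -0.17). Of 5 counted genes Chat was 2-fold higher and Chrm1 (2 UMIs in the cluster) and Chrm2 lower, where 4.1% and 13.4% of genes were. The Chrm1 interval spanned both directions (log2 -1.26, -4.33 to 0.64). Of 16 downstream genes 2 were lower, Plcb1 (129 against 259 CPM) and Kcnq3 (154 against 332). Of 15 other acetylcholine genes 3 were lower, Bche, Lypd1 and Prima1, each with at most 3 UMIs in the cluster.

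The PVH-like clusters together, against the other PVH-side neurons, had Chrm2 at 116 and 74.5 CPM (log2 0.64, 0.49 to 0.80) and Chrm3 at 47.2 and 172 (-1.87, -2.06 to -1.68). Of 6 counted genes 3 were 2-fold lower, Slc5a7, Chrm3 and Chrna4, and none higher (6.18% and 2.94% of genes). Only the Chrm3 interval lay wholly on the lower side. Those of Slc5a7 (4 against 21 UMIs, log2 -1.31, -3.32 to 0.25) and Chrna4 (3 against 19 UMIs, -1.58, -3.98 to 0.18) spanned both directions. Within nuclei, Sim1 was found in 38.1% of Chrm2-positive against 25.7% of Chrm2-negative PVH neurons, and in 19.1% of Chrm3-positive against 32.7% of Chrm3-negative ones. Of 16 downstream genes Kcnq5 was lower, at 174 against 445 CPM, and of 16 other acetylcholine genes Chrna3 and Prima1 were lower.

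The genes most like each member over the 28 clusters, by Pearson's r of log2(CPM + 1) among 14094 genes, were Luzp2 (0.791) and Cntn4 (0.753) for Chrm2, Gm42851 (0.693) and Msrb3 (0.683) for Chrm3, and Cdh7 (0.688) and Thsd7b (0.670) for Chrna7. For the sparse Chat and Chrm1 they were Gm49267 (0.734) and Epm2a (0.732), and Tmem191c (0.765) and Spag6l (0.736). These values are descriptions over clusters of 1 library.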

How the data were processed

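The deposited matrix held raw counts (UMIs per gene and barcode) of 1 gene expression library and of its hashtag library, made by the authors with Cell Ranger (5.0 per the submitters' processing notes, 4.0.0 in the matrix header) on mm10. The sources used here do not say whether introns or strand entered the counting. All 11409 barcodes but 1 had a hashtag UMI. Nuclei with over 800 and under 5000 genes, at most 12000 UMIs and at most 1% mitochondrial counts were kept, with genes seen in at least 3 nuclei. Hashtags were called with HTODemux (positive quantile 0.8) in Seurat 5.3.0 under R 4.3.3, whereas the authors used Seurat 4. Nuclei with both hashtags were left out, and doublets within a hashtag could not be seen. Each side was log-normalised (scale 10000), and 2000 variable genes without the 10 members gave 30 components, 20 neighbours and Leiden clusters at 0.55 (leidenbase 0.1.32).

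A cluster was named where the first marker and at least 3 markers of exactly 1 class were 1.5-fold or more higher with at least 3 UMIs, and called glutamatergic where Slc17a6 CPM exceeded Slc32a1 CPM. CPM, exact Poisson and binomial intervals and ratios were computed in Python 3.11.15 with scipy 1.17.1; ratios of 2-fold or more were counted for genes with at least 20 UMIs over both groups. The script was tested on simulated data. The genes named are the 10 members, 27 other acetylcholine and 16 downstream genes, transmitter genes, and for each member with at least 100 UMIs the 3 genes most like it. Genes overlapping the members were added after the data were seen. The members, lists and naming thresholds were chosen with earlier results of these data known. Gene models came from GENCODE M21, which matched 32158 of 32285 gene IDs, and promoter windows from RefSeq for 9 of 10 members (Chrm1 did not match). Alternatives varied the hashtag cut, filters, cluster resolution, UMI minimum, fold, averaging and thinning to 1000 UMIs.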

Additional observations from a re-analysis of the deposited data

Results flagged for a closer look

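The 3329 nuclei without a single hashtag (944 with both, 2385 with neither) entered no comparison, yet held UMIs of 8 of the 10 genes. Chat stood there at 3.26 CPM (exact Poisson 95% interval, 2.39 to 4.33), between the ARC and PVH neuron levels, and Slc5a7 at 1.39 CPM (0.847 to 2.14). Of the muscarinic receptor genes, Chrm3 was at 134.8 CPM (129 to 141), Chrm2 at 70.2 CPM (66.0 to 74.7), Chrm1 at 4.71 CPM (3.66 to 5.98) and Chrm5 at 0.277 CPM (0.0756 to 0.710). The nicotinic genes Chrna7 and Chrna4 were at 30.02 CPM (27.3 to 33.0) and 1.46 CPM (0.901 to 2.23). Chrm2 and Chrna7 thus also lay between the levels of the ARC and PVH neurons.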

How the results depend on the processing

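No paired analysis was possible because each side was 1 sample. The count of genes 2-fold higher in PVH than in ARC neurons was 2, and became 1 with a hashtag quantile of 0.99, with a 3-fold rule and with a minimum of 100 UMIs. With a 1.5-fold rule it became 3. The count 2-fold lower was 1, and became 2 without a UMI minimum. The count higher in glutamatergic ARC neurons was 0, and became 1 at Leiden resolution 1.2, with a 1.5-fold rule and without ARC cluster 2 (chosen after seeing the data), and 2 without a minimum. The count lower was 1 in all 14 alternatives. Quantile 0.99 left 1229 ARC and 407 PVH nuclei. There the richest cluster held 78.3% of Chat and 5.31% of Chrm2 UMIs, in place of 88.1% and 26.2%. The richest cluster was chosen anew and may not be the same one. It had 22 nuclei for Chrm2, against 194 in the main setting, and 90 against 204 for Chat. The share of Chat-positive neurons with Slc5a7 was 0 at that quantile, as it was with at least 2 Chat UMIs and after thinning. The cause was not tested. The log2 PVH-to-ARC ratios ranged over all alternatives from -3.25 to -2.54 for Chat, 1.37 to 2.19 for Slc5a7, 1.04 to 1.33 for Chrm2 and 0.022 to 0.64 for Chrna7. The lowest Chrna7 ratio came from quantile 0.99, and its interval included 0. The highest Chrm2 ratio came from leaving out ARC cluster 2 and PVH cluster 1. The glutamatergic-to-GABAergic log2 ratios in ARC ranged from -4.93 to -1.80 for Chat, -0.78 to 0.0061 for Chrm2, -0.80 to 0.26 for Chrm3 and 0.39 to 1.16 for Chrna7. Slc18a3, Chrm4, Chrm5, Chrna4 and Slc5a7 are limited by depth, and an effect of the overlap with Chat on Slc18a3 was not tested.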
